A study of Homo sapiens with 4 samples.

Results

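Interferon-stimulated genes are the antiviral genes that cells switch on when they meet interferon. The set described here was a list of 47 gene symbols, chosen by name with earlier results of these data known. Shares of the set given beside those of all genes are therefore descriptions. Of the 47 symbols, 46 were found among the 37810 gene names of the deposited value table, and USP18 was not analysed here. A gene was called expressed on an array above 1 fixed intensity, which lay 22.5 to 22.9 units above the peak of the background near 102, and 41 of the 46 genes were expressed on at least 1 array.

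The arrays came from MDA-MB-231, a line of metastatic breast cancer cells, and MCF10A, an immortalized line of breast epithelial cells that is not a tumour line. Each line was transfected for 48 h with FOXF2 siRNA or with control siRNA at 20 nM, to find genes regulated by FOXF2, a forkhead transcription factor. The 4 groups were therefore MDA-MB-231 with FOXF2 siRNA, MDA-MB-231 with control siRNA, MCF10A with FOXF2 siRNA and MCF10A with control siRNA. Every group had 1 Illumina BeadChip array of biotin-labelled cRNA made from total RNA, all 4 cultures carried an siRNA, no untransfected culture was included, and no sequence is given for either siRNA. No label speaks of independent cultures. Every p-value below therefore rests only on spread between these 4 arrays, whose number limits the precision. In the main limma fit that spread came from genes of similar brightness, not from each gene's own values. A lower intensity can mean fewer cells that express a gene or less of its RNA per cell, which cannot be told apart.

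Viral RNA is sensed by helicases of the RIG-I family, whose signal leads to the secretion of type I and type III interferons. Their receptors activate the kinases JAK1 and TYK2, which phosphorylate transcription factors such as STAT2. Complexes that hold STAT2 and IRF9 bind the interferon-stimulated response element, and the factors activated by interferon gamma bind the gamma-activated site. The induced genes encode RNA-binding and RNA-degrading proteins, membrane proteins that block virus entry, the ubiquitin-like ISG15 system, and the sensors and factors of the pathway itself. Epithelial and cancer cells often express some of them without added interferon.

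The response element can be read in the promoters of these genes, and the stretches below are shown because they hold the core in genes called higher (ISG15, HERC5, IFI44 and MX1) or lower (IFIH1 and IFI27) in MDA-MB-231, or higher with FOXF2 siRNA (IFI44L and IFITM3). The RefSeq promoter table (GRCh38.p14) held windows of 250 bases before to 50 bases after the annotated start for 37 of the 47 genes; DHX58, IRF7, IFIT2, OAS2, OASL, MX2, GBP2, IFITM2, USP18 and TRIM22 had none. The core of the response element, TTTCNNTTTC, was searched on both strands, and overlapping matches were counted. It was present in 25 of the 37 windows (67.6%), against 996 of all 27305 windows of this length (3.65%). The gamma-activated site, TTCNNNGAA, was present in 11 of the 37 (29.7%), against 7.88% of all windows. A core and a gamma-activated site overlapped each other in BST2, EPSTI1, IFI27 and IFITM1. Each stretch runs 5′ to 3′ on the strand of the gene, and capitals mark the matches to the core on either strand.

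ISG15 (chr1:1013359-1013424, plus strand): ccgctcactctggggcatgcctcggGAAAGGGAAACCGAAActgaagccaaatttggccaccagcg
HERC5 (chr4:88456969-88457079, plus strand): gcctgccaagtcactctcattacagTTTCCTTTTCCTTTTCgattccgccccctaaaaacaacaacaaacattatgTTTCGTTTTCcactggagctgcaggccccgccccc
IFI44 (chr1:78649746-78649805, plus strand): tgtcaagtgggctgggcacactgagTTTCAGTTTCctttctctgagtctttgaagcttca
MX1 (chr21:41420544-41420603, plus strand): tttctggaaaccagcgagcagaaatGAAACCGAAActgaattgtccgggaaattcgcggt
IFIH1 (chr2:162318671-162318868, minus strand): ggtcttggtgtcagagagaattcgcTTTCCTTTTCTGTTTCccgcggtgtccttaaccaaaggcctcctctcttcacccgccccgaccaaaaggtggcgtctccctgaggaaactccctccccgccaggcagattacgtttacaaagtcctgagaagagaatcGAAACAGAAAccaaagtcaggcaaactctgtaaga
IFI27 (chr14:94110603-94110675, plus strand): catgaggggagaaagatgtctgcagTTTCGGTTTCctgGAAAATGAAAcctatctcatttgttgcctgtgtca
IFI44L (chr1:78620259-78620409, plus strand): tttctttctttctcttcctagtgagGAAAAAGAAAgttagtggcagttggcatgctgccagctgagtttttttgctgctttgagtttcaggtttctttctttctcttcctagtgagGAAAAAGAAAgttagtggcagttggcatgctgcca
IFITM3 (chr11:320861-320937, minus strand): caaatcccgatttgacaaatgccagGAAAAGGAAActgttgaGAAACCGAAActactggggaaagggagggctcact

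In ISG15, HERC5 and IFIH1 overlapping matches form 1 longer capital stretch, and in IFI44L the same core occurred in each of 2 nearly identical stretches. Of the genes with a window, the core was present in 8 of 10 that were called higher in MDA-MB-231 (ISG15, HERC5, IFI44 and MX1 among those shown), in all 3 that were called lower (IFIH1, PARP14 and IFI27), and in 13 of 21 that were expressed and not called between the lines. A match is a description of the sequence, and no binding was measured.

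**Figure D1:**
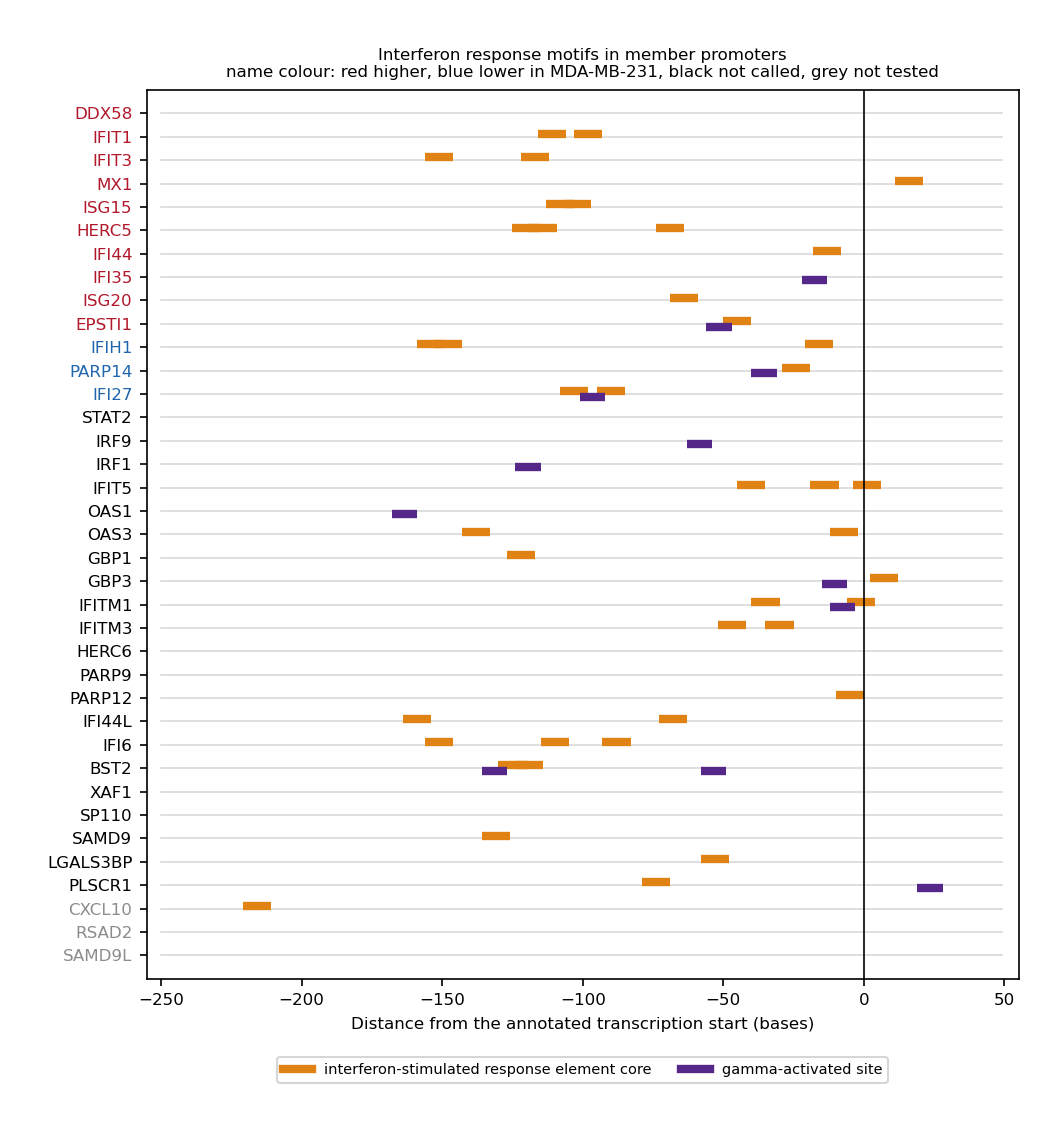
Positions of the response element core (orange) and of the gamma-activated site (purple) in the promoter windows of 37 interferon-stimulated genes, in bases from the annotated transcription start. Of 42 matches to the core, 38 end before the start, and the median position at which they begin is -94.

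All 7 basal epithelial markers found were called lower in MDA-MB-231, with KRT5 at 109 and 116 in MDA-MB-231 and 7202 and 6789.9 in MCF10A (FOXF2 siRNA first in each pair, as in all such pairs below), and the mesenchymal VIM and AXL were called higher and CDH2 lower. FOXF2 itself read 123 with FOXF2 siRNA and 259 with control siRNA in MDA-MB-231, and 143 and 241 in MCF10A. The value of 123 was below the expression limit, so the size of the fall in MDA-MB-231 was not measured on both sides. The fitted fall over both lines was 1.85 on the background-corrected log2 scale (SE 0.32, adjusted p = 1.51e-05, limma). Of 10 leukocyte markers, 3 were expressed (CD14, CD68 and CSF1R), while PTPRC, CD3E and MS4A1 were below the limit on every array. Of 5 markers of plasmacytoid dendritic cells, the main interferon-producing blood cells, the highest value was 138. The summed intensity of the leukocyte markers was 2095 and 1889 in MDA-MB-231 and 2114 and 1811 in MCF10A, with CD68 called higher in MDA-MB-231 (1.87) and CD14 and CSF1R lower (-3.88 and -1.67).

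Interferon-stimulated genes were expressed in both lines, and a larger share of them than of all gene names passed the limit on every array. With FOXF2 siRNA and control siRNA, 37 and 35 of the 46 genes were expressed in MDA-MB-231, and 33 and 31 in MCF10A. The shares of all gene names above the limit on the same arrays, in the same order, were 34.2%, 34.3%, 34.3% and 34.1%. On all 4 arrays 26 of the 46 genes were expressed (25.4% of all names), and on at least 1 array 41 (48.8% of all names). Expressed in MDA-MB-231 and on no MCF10A array were 8 of the 46 genes (DDX58, IFIT1, IFIT3, OASL, MX2, HERC5, XAF1 and EPSTI1; 17.4%, against 9.05% of all names). Expressed in MCF10A and on no MDA-MB-231 array were 3 (OAS1, IFI27 and TRIM22; 6.52%, against 8.97%).

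The 5 genes expressed on no array were the sensor DHX58, the oligoadenylate synthetase OAS2, the T cell chemokine CXCL10, RSAD2 (viperin) and SAMD9L, whose values lay between 90.04 and 123. The limit cut through a dense range: just below it were OAS1 in MDA-MB-231 with FOXF2 siRNA (123.0), SAMD9L in MDA-MB-231 with control siRNA (122.9), IFIT3 in MCF10A with FOXF2 siRNA (116) and MX1 in MCF10A with control siRNA (123.4). Just above it, on the same arrays, were BST2 (125.4), IFIH1 (127), IFIT2 (127) and IRF7 (125.3).

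**Figure D2:**
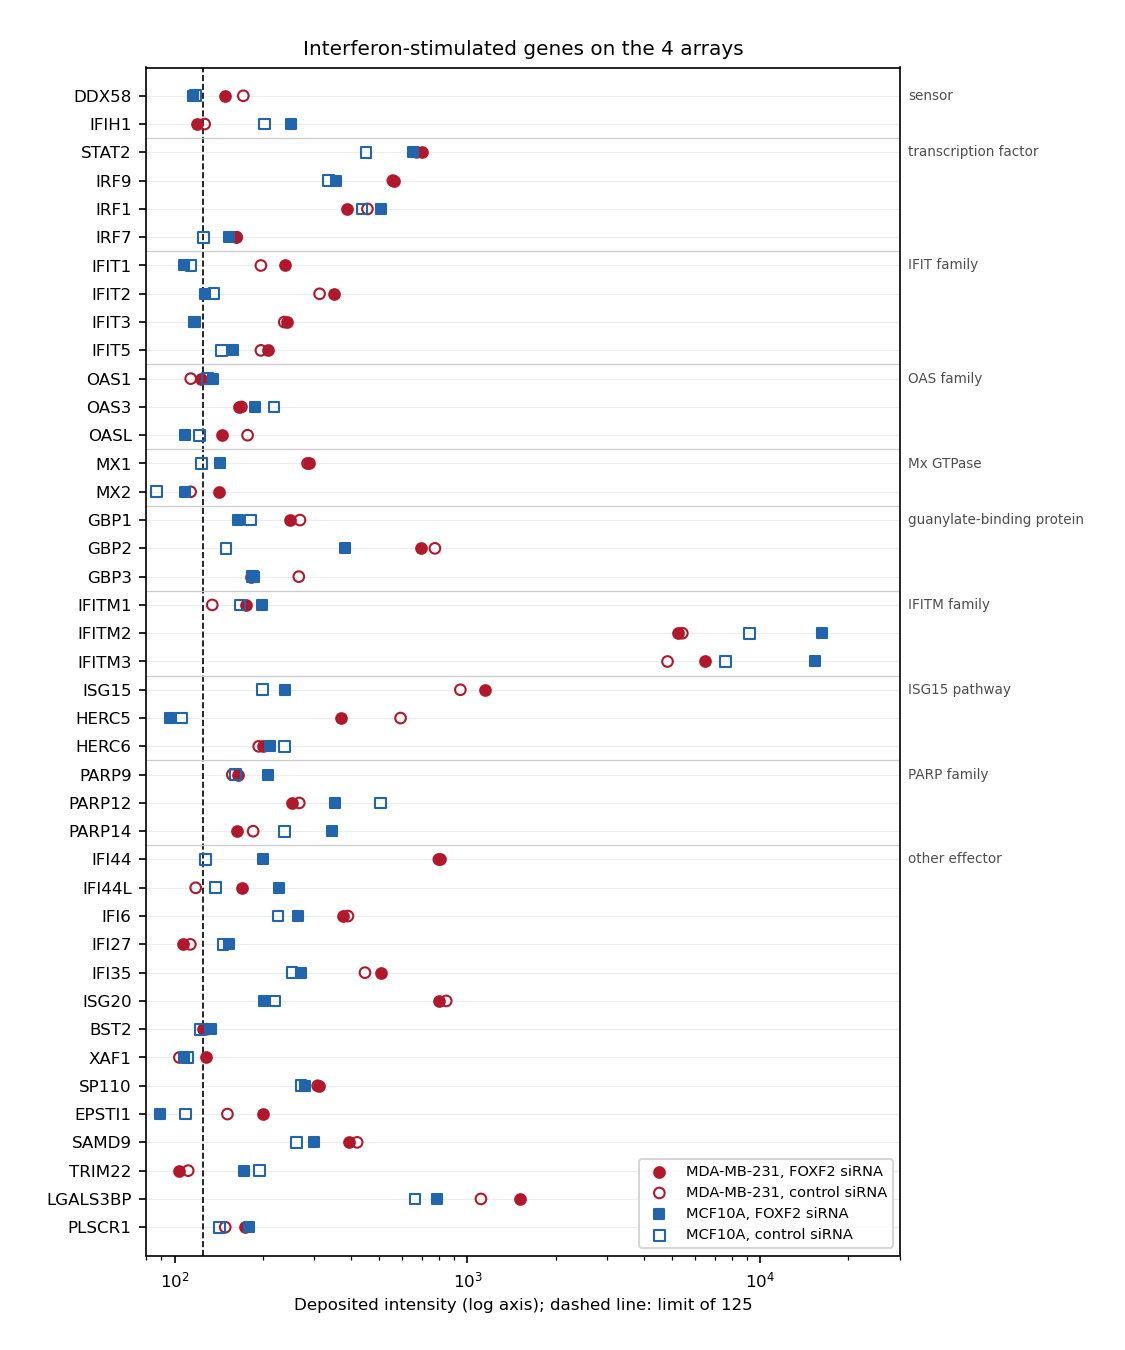
Deposited intensity (log axis) of the 41 interferon-stimulated genes above the expression limit (dashed line) on at least 1 array, grouped by role, with circles for MDA-MB-231, squares for MCF10A, filled symbols for FOXF2 siRNA and open symbols for control siRNA. In HERC5, IFI44, ISG15, ISG20 and the IFIT genes other than IFIT5 both MDA-MB-231 arrays lie far above both MCF10A arrays, and in IFITM2 and IFITM3 they lie below.

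The first comparison asked how the genes differ between the metastatic and the non-tumour line. A large block of antiviral effector genes was higher in MDA-MB-231 (HERC5, IFI44, ISG15, ISG20, 3 IFIT genes, GBP2 and MX1), while the RNA sensor IFIH1, the restriction factor TRIM22 and the entry inhibitor IFITM2 were lower. With limma over 18434 expressed genes (cell line and siRNA as terms, Benjamini-Hochberg adjusted p under 0.05 and a fitted difference of at least 2-fold), 13 of the 41 genes were called higher (31.7%, against 6.4% of all genes) and 5 were called lower (12.2%, against 6.61%). All 18 differed in the same direction under both siRNAs. The calls were made on the mean gap over both siRNAs, which favours equal directions, so this is no separate evidence. Of the 13, 6 had no MCF10A array above the limit (HERC5, IFIT1, IFIT3, DDX58, OASL and EPSTI1), and of the 5, 2 had no MDA-MB-231 array above it (TRIM22 and IFI27). These 8 entered the fit through the brighter line alone, so their p-values set signal against background and their sizes are bounds. With those bounds, 11 of the 13 and 4 of the 5 differed by 2-fold or more, and DDX58, OASL and IFI27 had bounds under that size. Among the 30 genes expressed in both lines, 7 were called higher (7.3% of all such genes) and 3 lower (7.38%). A further 6 of the 41 genes were higher (5.32% of all genes) and 2 lower (4.13%) with an adjusted p under 0.05 and a fitted difference under 2-fold. With 1 residual degree of freedom, limma took each gene's spread from genes of similar brightness; with each gene's own spread none of the 18 calls was kept (limma, 11 genes at an unadjusted p under 0.05), and without background correction 9 were kept (HERC5, IFI44, ISG15, ISG20, IFIT2, IFIT3, GBP2, MX1 and IFITM2). Without a trend in the prior variance 13 were kept, with DDX58, IFITM2, PARP14, IFI27 and IFI35 lost.

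The differences below are log2 values of MDA-MB-231 minus MCF10A on the background-corrected scale. Where no array of a line was above the limit, the ratio is given as a bound on that scale instead, against the lowest expressed value of the dim arrays. A limma p-value beside such a bound sets signal against background and does not test the size of the bound.

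ISG15, the ubiquitin-like protein attached to other proteins, read 1149.8 and 946 in MDA-MB-231 and 239 and 199.8 in MCF10A, a difference of 2.87 (SE 0.23, adjusted p = 1.53e-33). HERC5, the ligase that attaches ISG15, read 370.3 and 591 in MDA-MB-231 and 96.4 and 106 in MCF10A. Both MCF10A values of HERC5 were at background, so it was at least 9.85-fold higher in MDA-MB-231 (adjusted p = 5.58e-38). HERC6, its neighbour on chromosome 4, read 199.9 and 194 in MDA-MB-231 and 212 and 237 in MCF10A, and its difference of -0.31 was not called. USP18, which removes ISG15 from its targets, was not analysed here.

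The IFIT proteins, which bind viral RNA ends and block their translation, form a cluster on chromosome 10, and 3 of the 4 were called. IFIT2 read 349 and 313 in MDA-MB-231 and 127 and 136 in MCF10A (2.44, SE 0.30, adjusted p = 4.06e-15). IFIT1 (237 and 197 in MDA-MB-231, 108 and 114 in MCF10A) was at least 3.37-fold higher and IFIT3 (241 and 237 in MDA-MB-231, 116 and 117 in MCF10A) at least 3.97-fold higher. In all 3 genes the arrays of the lines did not overlap, and MCF10A was at or barely above background. IFIT5, expressed on all 4 arrays, read 209 and 197 in MDA-MB-231 and 159 and 145 in MCF10A, and its difference of 0.85 was under the 2-fold size (adjusted p = 0.0341).

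IFI44 showed the widest gap that was measured on both sides, at 807 and 799 in MDA-MB-231 and 199.7 and 128 in MCF10A (3.39, SE 0.25, adjusted p = 3.29e-40). IFI44L, its neighbour and paralogue on chromosome 1, read 169 and 118 in MDA-MB-231 and 226 and 138 in MCF10A, with overlapping arrays and a difference of -0.72 that was not called (adjusted p = 0.154). ISG20, an exonuclease that degrades RNA, read 802 and 846 in MDA-MB-231 and 202 and 220.1 in MCF10A (2.57, SE 0.24, adjusted p = 8.22e-26). IFI44 and ISG20 were expressed on all 4 arrays, so neither value is a bound.

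The GTPases split by member. MX1, which traps viral nucleoproteins, read 287 and 284 in MDA-MB-231 and 143 and 123 in MCF10A (2.13, SE 0.30, adjusted p = 6.06e-11, limma). The MX1 value of 123 was below the expression limit, so with control siRNA the gap was a bound, at least 5.15-fold. MX2, the neighbour of MX1, was expressed on 1 array, MDA-MB-231 with FOXF2 siRNA (142), and was not called. Among the guanylate-binding proteins, which attack intracellular pathogens, GBP2 was called higher, at 694 and 774 in MDA-MB-231 and 382 and 149.8 in MCF10A (2.24, SE 0.24, adjusted p = 1.13e-19). Its gap was 1.04 with FOXF2 siRNA and 3.45 with control siRNA, so the gap was unequal under the 2 siRNAs. GBP1 read 247 and 268 in MDA-MB-231 and 165 and 181 in MCF10A, just under 2-fold higher (0.99, adjusted p = 0.00333). GBP3 read 182 and 265 in MDA-MB-231 and 186 and 184 in MCF10A, and its difference of 0.41 was not called.

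Of the sensors, DDX58 (RIG-I) and IFIH1 (MDA5), which recognise different forms of viral RNA, differed in opposite directions. DDX58 read 149 and 172 in MDA-MB-231 and 115 and 118 in MCF10A, at least 1.90-fold higher (adjusted p = 0.0229). IFIH1 read 119 and 127 in MDA-MB-231 and 250.5 and 202 in MCF10A, a difference of -1.91 (SE 0.34, adjusted p = 4.24e-07, limma). The value of 119 was below the expression limit and that of 127 close to it, so this size rests partly on background. Both sensor calls were lost without background correction. The DDX58 call was also lost with an offset of 50 and with a limit of 150.

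Other genes called higher were dimmer or closer to 2-fold. EPSTI1, named for contact between epithelium and stroma in breast tumours, was at least 2.24-fold higher (199.7 and 151 in MDA-MB-231, 89.1 and 109 in MCF10A). OASL, a synthetase relative that aids RIG-I signalling, read 146 and 177 in MDA-MB-231 and 109 and 122 in MCF10A, at least 1.91-fold higher (adjusted p = 0.0179). IFI35 read 506 and 447 in MDA-MB-231 and 271 and 251 in MCF10A (1.16, adjusted p = 1.89e-05). The OASL call was also lost with an offset of 50 and with a limit of 150.

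Lower in MDA-MB-231 were 4 genes beside IFIH1. TRIM22, a ubiquitin ligase that restricts viruses, read 103 and 111 in MDA-MB-231 and 172 and 195 in MCF10A, at least 2.48-fold lower in MDA-MB-231 (adjusted p = 5.32e-05). IFITM2, a membrane protein that blocks the fusion of viruses, read 5240.3 and 5416 in MDA-MB-231 and 16210.4 and 9182 in MCF10A (-1.21, SE 0.18, adjusted p = 2.4e-10). In both genes every MDA-MB-231 value lay below every MCF10A value. PARP14, an ADP-ribosyltransferase, read 163 and 185 in MDA-MB-231 and 345 and 237 in MCF10A (-1.18, adjusted p = 0.000199), a call also lost with an offset of 50. IFI27, a mitochondrial protein, was at least 1.63-fold lower (107 and 113 in MDA-MB-231, 153 and 146 in MCF10A, adjusted p = 0.0457), a call lost in 6 of 9 alternatives. IFITM3, whose values are given with the siRNA responses below, had a difference of -0.96 (adjusted p = 9.63e-07), under the 2-fold size. The IFITM genes are close paralogues on chromosome 11, each read by 1 probe, and cross-hybridization between them was not tested.

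None of the 4 transcription factors was called between the lines. STAT2 read 698 and 671 in MDA-MB-231 and 653 and 451 in MCF10A, both MDA-MB-231 arrays above both others, and was not called (0.40). IRF9, its DNA-binding partner, read 559 and 556 in MDA-MB-231 and 356 and 336 in MCF10A, higher by 0.86 (adjusted p = 0.0014) and so under the 2-fold size. IRF1, a factor of the interferon gamma response, read 389 and 455 in MDA-MB-231 and 509 and 436 in MCF10A, with overlapping lines (-0.20). IRF7, which drives interferon alpha genes, read 162 and 163 in MDA-MB-231 and 154 and 125.3 in MCF10A (0.58), with both MDA-MB-231 values above both MCF10A values.

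A further 4 effector genes passed the adjusted p at under 2-fold, with no overlap between the lines. LGALS3BP, a secreted ligand of galectins, read 1509 and 1112 in MDA-MB-231 and 789 and 662 in MCF10A (0.93, adjusted p = 7.05e-05). IFI6, which restrains apoptosis, read 375 and 391 in MDA-MB-231 and 264 and 225 in MCF10A (0.92, adjusted p = 0.00185). SAMD9, which blocks poxviruses, read 393 and 420.1 in MDA-MB-231 and 298 and 260.1 in MCF10A (0.74, adjusted p = 0.0136). PARP12 ran the other way, at 252 and 266 in MDA-MB-231 and 354 and 506 in MCF10A (-0.95, adjusted p = 0.000823).

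The remaining 10 genes (IFITM1, PARP9, OAS1, OAS3, MX2, XAF1, SP110, BST2, HERC6 and PLSCR1) had differences from -0.54 to 0.85 with adjusted p-values of 0.272 or more. OAS3, which makes the activator of RNase L, read 166 and 169 in MDA-MB-231 and 188 and 218 in MCF10A, and OAS1 read 123 and 113 in MDA-MB-231 and 135 and 129 in MCF10A. Both synthetases lay lower on the MDA-MB-231 arrays without passing the test. SP110, a nuclear body protein, read 312 and 308 in MDA-MB-231 and 279 and 270.3 in MCF10A. BST2 (tetherin, which holds budding virus at the cell surface) read 125.4 and 129 in MDA-MB-231 and 133 and 122 in MCF10A, at the limit in both lines. XAF1, a promoter of apoptosis, passed the limit on 1 array, MDA-MB-231 with FOXF2 siRNA (128).

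**Figure D3:**
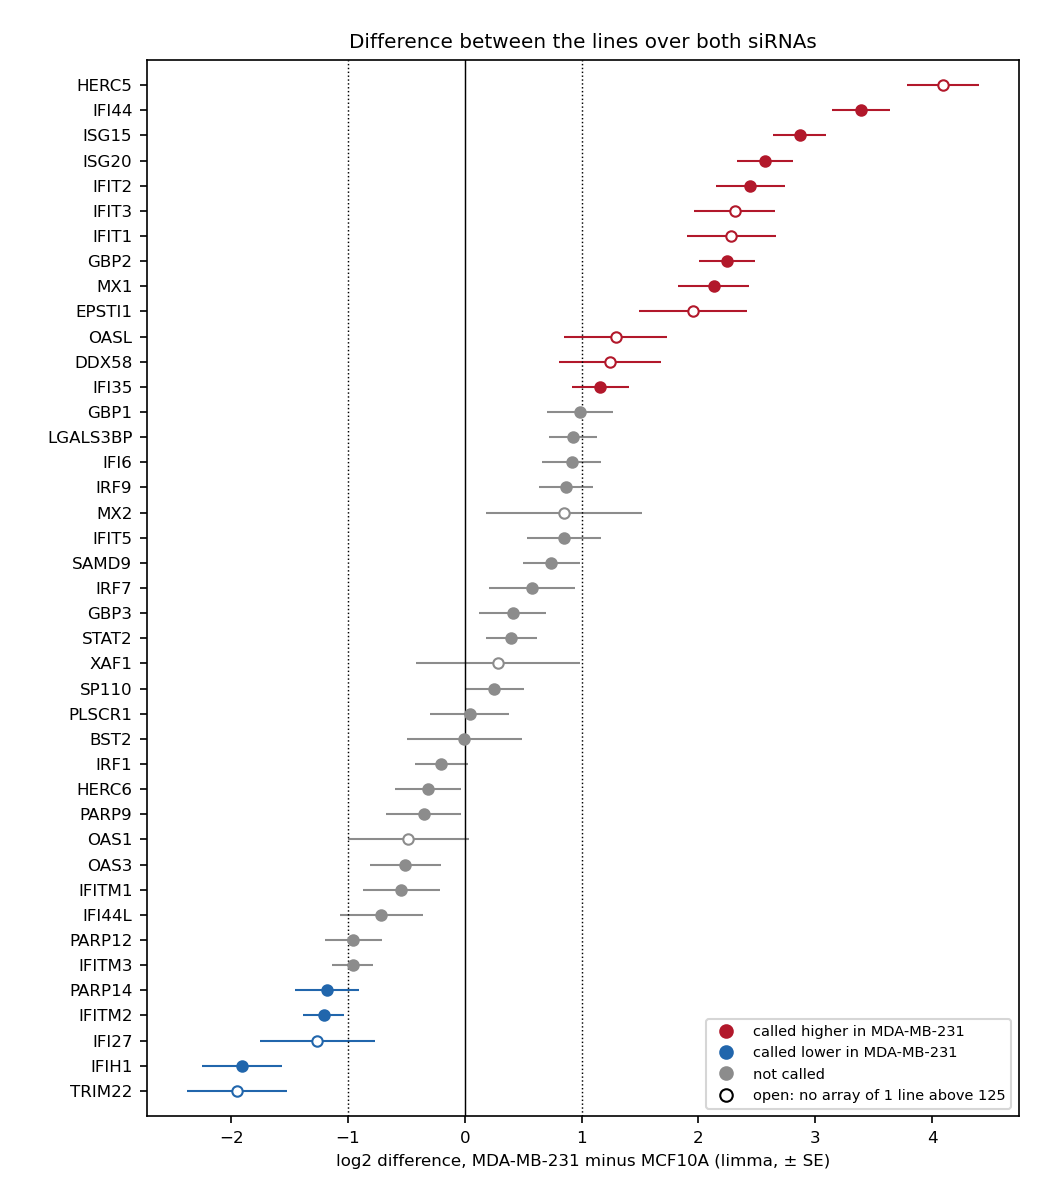
Difference between the lines (log2, MDA-MB-231 minus MCF10A, limma estimate ± SE over both siRNAs) for the 41 expressed genes, with red for called higher, blue for called lower, grey for not called, open symbols where no array of 1 line was above the expression limit, and dotted lines at 2-fold. Estimates run from -1.95 for TRIM22 to 4.09 for HERC5; that of HERC5 rests on values at background in MCF10A.

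The lines were also compared within each siRNA. With FOXF2 siRNA, a gap of 2-fold or more placed 13 of 41 genes higher in MDA-MB-231 (8.21% of all genes) and 5 lower (8.31%). With control siRNA, it placed 13 of 39 higher (8.05%) and 3 lower (7.97%). The 3 lower with control siRNA were IFIH1, PARP12 and TRIM22, and on those arrays the called IFITM2 (-0.77) and PARP14 (-0.60) were under 2-fold lower.

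The second comparison asked how the genes responded to FOXF2 siRNA within each line. In MCF10A they were mostly higher with FOXF2 siRNA, led by GBP2, IFI44, IFI44L and IFITM3. In MDA-MB-231 they were spread on both sides of 0, and IFI44L was the 1 gene at least 2-fold different. With 1 array per group no test was possible within a line, and values are log2 differences of FOXF2 siRNA minus control siRNA after background correction.

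In MDA-MB-231, 1 of 38 genes expressed on at least 1 of the 2 arrays was higher by 2-fold or more (2.63%, against 0.937% of all genes) and none lower by that size (1.2% of all genes). In MCF10A, 4 of 33 were higher by 2-fold or more (12.1%, against 1.55%) and none lower (1.03%). At 1.5-fold, 3 were higher and 3 lower in MDA-MB-231 (6.81% and 6.91% of all genes), and 10 were higher and 1 lower in MCF10A (7.67% and 6.41%). Any difference upward was seen in 21 of 38 genes in MDA-MB-231 (49.8% of all genes) and in 26 of 33 in MCF10A (49.6%). The median difference of the genes was 0.02 in MDA-MB-231 and 0.31 in MCF10A (0.29 with bounded genes at their bound), against medians of all genes of -0.002 and -0.003. Many of the genes were dim. At a mean log2 value of 6 to 8 the robust SD over all genes was 0.43 in MDA-MB-231 and 0.42 in MCF10A, and 3.03% and 3.61% of them differed by at least 2-fold.

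GBP2 had the largest response of the set. It read 382 with FOXF2 siRNA and 149.8 with control siRNA in MCF10A, a difference of 2.22. In MDA-MB-231 it read 694 with FOXF2 siRNA and 774 with control siRNA, a difference of -0.18. The MCF10A array with FOXF2 siRNA thus lay between the MCF10A control and both MDA-MB-231 arrays. IFI44 read 807 with FOXF2 siRNA and 799 with control siRNA in MDA-MB-231 (0.02), against 199.7 and 128 in MCF10A (1.46). Its control value in MCF10A was close to the expression limit.

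IFI44L was higher with FOXF2 siRNA in both lines. In MDA-MB-231 it read 169 with FOXF2 siRNA and 118 with control siRNA, where the control was not expressed and the ratio was at least 2.14. In MCF10A it read 226 and 138 (1.44). The ratios of the deposited intensities, with no background correction, were 1.43 in MDA-MB-231 and 1.64 in MCF10A.

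The IFITM genes, which are neighbours, were higher with FOXF2 siRNA in MCF10A. IFITM3, which blocks the entry of influenza and other enveloped viruses, read 6478 with FOXF2 siRNA and 4821 with control siRNA in MDA-MB-231 (0.43), and 15350.2 and 7604 in MCF10A (1.02). IFITM2 read 5240.3 and 5416 in MDA-MB-231 (-0.05), and 16210.4 and 9182 in MCF10A (0.83). IFITM1 read 175 and 134 in MDA-MB-231 (0.88), and 199 and 167 in MCF10A (0.48). All 3 were thus higher with FOXF2 siRNA in MCF10A, and IFITM2 was not in MDA-MB-231. At the brightness of IFITM2 and IFITM3 (mean log2 values of 10 to 16) the robust SD over all genes was 0.30 in MDA-MB-231 and 0.25 in MCF10A, and 0.131% and 0.619% of genes differed by at least 2-fold.

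Between 1.5-fold and 2-fold higher with FOXF2 siRNA in MCF10A, beside IFITM2, were 5 genes. IRF7 read 154 with FOXF2 siRNA and 125.3 with control siRNA there (0.79), with a difference of -0.02 in MDA-MB-231. PARP14 read 163 and 185 in MDA-MB-231 (-0.38), and 345 and 237 in MCF10A (0.78). PLSCR1, a phospholipid scramblase, read 174 and 149 in MDA-MB-231 (0.49) and 179.7 and 142 in MCF10A (0.74). Of these 3, PLSCR1 alone was higher with FOXF2 siRNA in both lines. PARP9, the partner of the ubiquitin ligase DTX3L, read 165 and 157 in MDA-MB-231 (0.14) and 208 and 161 in MCF10A (0.70). STAT2 read 653 and 451 in MCF10A (0.64), with a difference of 0.06 in MDA-MB-231. PARP12 was the 1 gene past 1.5-fold downward in MCF10A (354 with FOXF2 siRNA and 506 with control siRNA, -0.65), and its difference in MDA-MB-231 was -0.12.

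In MDA-MB-231, 3 of 38 genes were past 1.5-fold upward (7.89%, against 6.81% of all genes) and 3 downward (7.89%, against 6.91%). IFI44L, IFITM1 and EPSTI1 (199.7 with FOXF2 siRNA and 151 with control siRNA, 0.80) were higher. GBP3 (182 and 265, -0.90), HERC5 (370.3 and 591, -0.83) and OASL (146 and 177, -0.62) were lower. EPSTI1, HERC5 and OASL were not expressed in MCF10A, so they could not be counted there, and GBP3 read 186 and 184 in that line (0.03). ISG15, the partner of HERC5, was not lower: its differences were 0.31 in MDA-MB-231 and 0.42 in MCF10A.

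**Figure D4:**
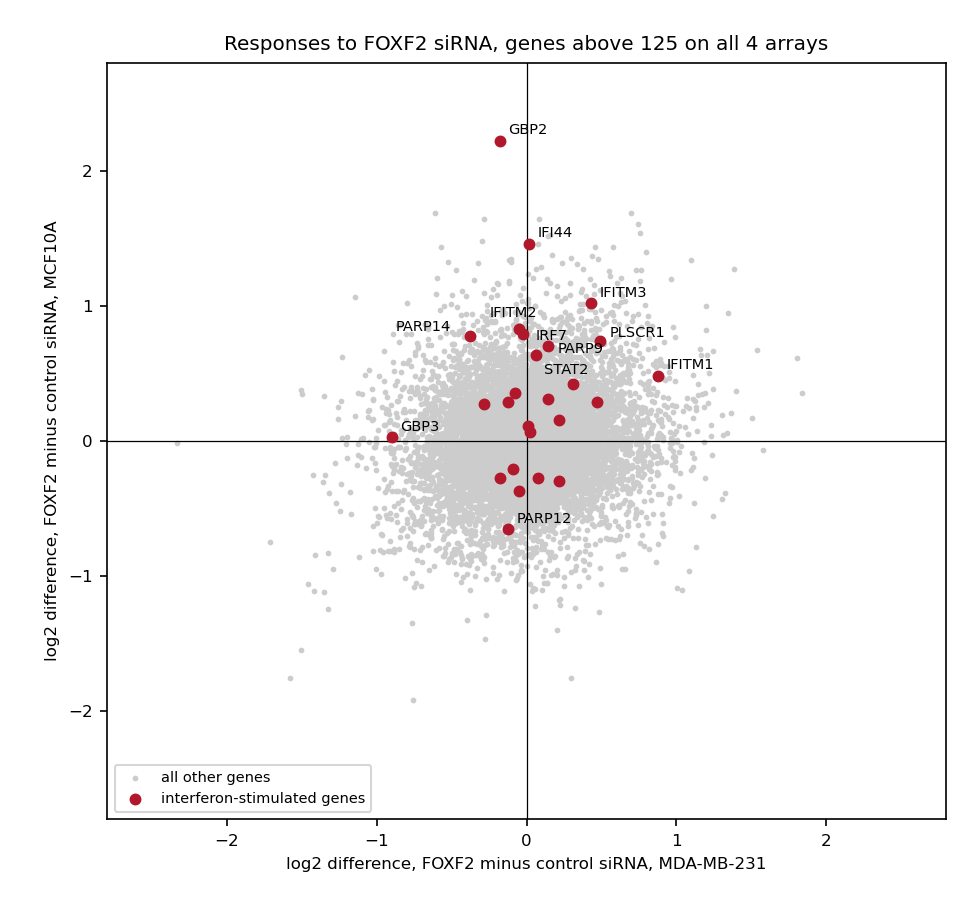
Response to FOXF2 siRNA (log2, FOXF2 minus control siRNA) in MDA-MB-231 (x axis) against MCF10A (y axis) for 9610 genes above the expression limit on all 4 arrays, with the 26 interferon-stimulated genes in red and those past 1.5-fold in either line named. GBP2 and IFI44 lie high on the MCF10A axis and near 0 on the MDA-MB-231 axis.

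Among the 26 genes expressed on all 4 arrays, 12 were higher with FOXF2 siRNA in both lines (25.9% of all 9610 such genes) and 4 lower in both (27.1%). A further 8 were lower in MDA-MB-231 and higher in MCF10A, and 2 (IFIT2 and HERC6) the reverse. The shares of all genes in each of these opposite patterns were not counted, so no excess can be read from them. The responses of the lines correlated at Pearson r = 0.10 over these 26 genes and 0.12 over all 9610, as a description across genes of the same 4 arrays. The response in MDA-MB-231 minus that in MCF10A was at least 2-fold in size for 3 of the 26 genes (4.86% of all): GBP2 (-2.40), IFI44 (-1.45) and PARP14 (-1.16). With 1 array per group these differences between the lines could not be tested.

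To test the response averaged over the lines, limma was fitted to all 4 arrays, with the lines standing in for replicates. GBP2 rose by 1.02 (SE 0.24, adjusted p = 0.011), IFITM3 by 0.73 (SE 0.18, adjusted p = 0.0229) and IFI44L by 1.40 (SE 0.36, adjusted p = 0.0347). IFITM3 and IFI44L were higher in 2 of 2 lines and GBP2 in 1 of 2, so its average rests on MCF10A alone. These were 3 of 41 genes called higher (0.152% of all genes), and none was called lower (0.103%). At an unadjusted p under 0.05 limma had 6 higher, which included IFI44, IFITM1 and IFITM2, and 0 lower (5.79% of all genes in either direction). All 3 calls were lost in limma without a trend and with each gene's own spread, which each left 1 of the 41 genes at an unadjusted p under 0.05; GBP2 and IFI44L were also lost without background correction, IFITM3 and IFI44L without a filter on dim genes, and IFI44L with a limit of 150.

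A few markers of other cell types also differed between the MCF10A arrays, in both directions. CSF1R, a macrophage growth factor receptor, read 347 with FOXF2 siRNA and 183 with control siRNA in MCF10A, and the fibroblast proteoglycan DCN 852.5 and 333, while COL1A1, COL1A2, COL3A1 and LUM were below the limit on every array. The endothelial marker PECAM1 was lower with FOXF2 siRNA in MCF10A, at 142 against 187. The intensities of 7 fibroblast markers, 3 of them expressed, summed to 796 and 701 in MDA-MB-231 and to 1540.4 and 1005.9 in MCF10A. In MCF10A the expressed PDGFRA (144 and 133) and PDGFRB (136 and 120) were near the limit, so the sums there differed mainly through DCN. The part of other cells in the response was not tested, and PTPRC, which marks leukocytes, read 102 and 105 in MCF10A, at background.

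Genes upstream of and around the pathway were listed apart from these members. Of 21 interferon ligand genes found, 3 were expressed on at least 1 array (48.8% of all names), and none was called between lines or siRNAs. IFNA8 was expressed on all 4 arrays (209 and 239 in MDA-MB-231, 224 and 211 in MCF10A), while IFNA10 and IFNK passed the limit on the MCF10A array with FOXF2 siRNA alone, at 129.8 and 127. IFNB1, which encodes interferon beta, was below the limit on every array, at 84.5 and 107 in MDA-MB-231 and 91.2 and 87.0 in MCF10A.

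All 6 interferon receptor genes found were expressed (48.8% of all names on at least 1 array). Between the lines, 1 of the 6 was called higher in MDA-MB-231 (6.4% of all genes) and none lower (6.61%). IL28RA, the receptor chain for type III interferon now named IFNLR1, was called higher in MDA-MB-231 (218 and 216 in MDA-MB-231, 131 and 134 in MCF10A, 1.52, SE 0.33, adjusted p = 4.95e-05). IFNGR1 and IFNGR2, the chains of the interferon gamma receptor, had differences of -0.76 and -0.73, under 2-fold. None of the kinases JAK1, JAK2 and TYK2 was called. TYK2 and JAK1 had differences of 0.54 and -0.24. JAK2 read 141 and 145 in MDA-MB-231 and was below the limit in MCF10A (108 and 117). It was at least 1.43-fold higher in MDA-MB-231 with FOXF2 siRNA and at least 1.54-fold higher with control siRNA.

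Of 12 expressed sensing adaptors and kinases, none was called higher in MDA-MB-231 (6.4% of all genes) and 2 were called lower (6.61%). These were the DNA sensor IFI16 (222 and 239 in MDA-MB-231, 1027 and 1135 in MCF10A, -2.79) and TMEM173, which encodes STING (488 and 367 in MDA-MB-231, 1147 and 899.6 in MCF10A, -1.47), and IKBKE had a difference of -0.95. Of 8 expressed regulators of the pathway, 1 was called higher (6.4% of all genes) and none lower (6.61%). This was SOCS3, an inhibitor of JAK kinases (1.39, adjusted p = 0.00646, limma). It read 179.6 and 156 in MDA-MB-231 and 129.8 and 101 in MCF10A. The SOCS3 value of 101 was at background, so with control siRNA the gap was a bound, at least 1.81-fold. PIAS3 and PTPN2 had differences of -0.68 and -0.56. Of 28 further interferon-stimulated genes expressed, 1 was called higher (6.4% of all genes) and 1 lower (6.61%). These were NMI, the partner of IFI35 (1.07), and the peptide transporter TAP1 (-1.17). LAMP3 passed the limit on 1 array, MCF10A with FOXF2 siRNA, and its fitted difference of -1.11, which rests on values at background in MDA-MB-231, was not called. With FOXF2 siRNA none of these lists held a called gene in limma, and LAMP3 was at least 2.14-fold higher in MCF10A (169 with FOXF2 siRNA and 116 with control siRNA).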

How the data were processed

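Total RNA from 4 transfected cultures was measured on Illumina arrays, 1 array per group. The authors' deposited table holds 1 linear intensity per gene name and array, already normalized by a method not given in the sources used here; its columns had medians of 111.5 to 111.6 (111.4 in MCF10A with FOXF2 siRNA) and no background had been subtracted. A probe table was used only to count probes (34 members had 1, 12 had 2 to 4): its 8 columns of per-sample values match no sample's labels. A gene was expressed above an intensity of 125. Background was the mode of values below 140 on each array (kernel bandwidth 1.5), with the SD below it, and was corrected with limma's normexp estimate; 16 was added and log2 taken. Differences with 1 array below 125 are bounds against the lowest expressed value. limma 3.58.1 in R 4.3.3 with lmFit and a trended eBayes prior (terms for line and siRNA) was fitted over 18434 genes above 125 on at least 1 array. Its prior degrees of freedom were infinite. All members were accounted for; other genes were named when called, at least 2-fold different with FOXF2 siRNA, or among the 3 most different between lines in their list. The members and lists were chosen with earlier results of these data known. Promoters were matched by symbol (1 gene by a synonym) to RefSeq, GRCh38.p14. Alternatives changed the background correction, offset, normalization, limit, filter, prior variance, fold and bounds. Some genes of the marker and pathway lists are not reported here.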

Additional observations from a re-analysis of the deposited data

How the results depend on the processing

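The labels give no replicate numbers, so no block by replicate could be fitted; cell line was a term of the limma fit, which therefore compared the siRNAs within lines, with 1 residual degree of freedom. No call between the lines reversed under any of the alternatives, and the 18 calls were all kept with scaling to a common median and with quantile normalization. Of 13 genes higher and 5 lower in MDA-MB-231, limma gave 8 and 1 without background correction, 0 and 0 with each gene's own spread, 3 lower with an offset of 50, 2 lower without a trend, and 3 lower by size on the control siRNA arrays alone. Of 3 genes that rose with FOXF2 siRNA in limma, 1 was called without background correction, 1 without a filter on dim genes, 0 without a trend and 0 with own spreads. Counts over all genes moved too: 28 higher and 19 lower with FOXF2 siRNA became 41 and 24 without background correction, 42 and 25 with a limit of 150, 16 and 14 without a filter, and 0 and 0 with an untrended prior (847 genes had an unadjusted p under 0.05) or with own spreads (855); between lines, 1180 higher and 1219 lower became 568 and 658 without background correction, 755 and 820 without a trend, 2161 and 1980 with no minimum difference, and 0 with own spreads (2096 at an unadjusted p under 0.05). In MDA-MB-231, the 1 gene at least 2-fold higher with FOXF2 siRNA became 0 without background correction, with an offset of 50, with a limit of 150 and with bounds left out, and the size of 1.5-fold gave 3 higher and 3 lower. In MCF10A, 4 higher became 2 without background correction, and 10 higher and 1 lower at 1.5-fold. The MCF10A median of 0.31 was 0.20 without a filter. Own spreads left 1 degree of freedom per gene; the cause of the other changes was not tested. Signal over background limits the dim genes: at a limit of 150, 32, 31, 29 and 22 genes were expressed in MDA-MB-231 with FOXF2 siRNA and control siRNA and in MCF10A with FOXF2 siRNA and control siRNA.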
